A study of Mus musculus with 44 samples.

Results

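The genes described here are 10 mouse genes that make or break down cyclic AMP: the phosphodiesterase genes Pde1a, Pde1b, Pde2a, Pde4a, Pde4b, Pde4d, Pde7b and Pde10a, and the adenylyl cyclase genes Adcy1 and Adcy8. They were taken by symbol and found by Entrez gene identifier among the 27179 genes counted, and all 10 passed the filter on low counts in every comparison. They were selected on fold changes between times and genotypes measured in these same libraries. Which contrasts weighed in the choice is not recorded, so every contrast is counted as used, and the levels, adjusted p-values and calls given here describe the members and are not independent evidence about cyclic AMP genes. Dorsal hippocampus was sequenced from 36 mice, 1 library per mouse, with 6 wild-type (WT) and 6 homozygous mutant (Kdm5bDARID/DARID) mice at each of 0, 1 and 3 h, and each group of 6 had 3 mice labelled male and 3 labelled female. The 0 h mice were naive animals from the home cage, and the 1 h and 3 h mice were killed after contextual fear conditioning with 3 foot shocks. All mice were 7 to 8 weeks old F2 animals of a C57BL/6J by 129S2/Sv cross. The mutant allele is a germline deletion of exons 2 to 4 of Kdm5b, a histone H3K4me3 demethylase gene, so every cell of the animal carried it through development, and no group separates an effect in the adult hippocampus from an earlier one.

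Adenylyl cyclases convert ATP to cyclic AMP, and phosphodiesterases hydrolyse it, so together they set the size and the duration of the signal that reaches protein kinase A, the Epac exchange factors and the transcription factor CREB. In hippocampal neurons the cyclases encoded by Adcy1 and Adcy8 are stimulated by calcium and calmodulin, which couples calcium entry at synapses to cyclic AMP, and they are known for their part in long-term memory. The phosphodiesterases differ in how they are controlled: those of Pde1a and Pde1b are activated by calcium and calmodulin, that of Pde2a by cyclic GMP, those of the Pde4 genes and Pde7b are specific for cyclic AMP, and that of Pde10a hydrolyses both cyclic nucleotides.

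Library totals ran from 40274435 to 107000233 counts, and no pair of libraries within a group held identical counts. Transcripts of the sex chromosomes went against the sex label in 2 libraries, the one labelled WT 1 h male 1 and the one labelled mutant 3 h female 2. The first held 0 counts on Y-linked genes and 51186 of Xist, the second 10239 and 36, so the mismatches mirror each other. Both libraries were kept under their labels. Whether they were exchanged, or whether their other labels are right, was not tested. The calls and response differences that turn on them are given with and without them. The count of Kdm5b is of the whole gene, exons outside the deletion included, and so does not check the genotype labels: it was 79.6 to 97.1 counts per 1e6 scaled counts (CPM) in WT libraries and 75.6 to 93.6 in mutant ones. Markers of CA1, CA3 and dentate granule cells were detected in every library, and the summed level of 5 choroid plexus markers varied widely between libraries, with Ttr between 10.95 and 7240 CPM. In bulk tissue, fewer cells of a type and less RNA per cell cannot be told apart.

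Promoter windows were available from RefSeq (GRCm38.p6) for 9 of the 10 genes, 24 windows in all, each running from 250 bases before an annotated start to 50 bases after it on the strand of the gene. Adcy8 is named only. The 4 windows printed here belong to the genes called in at least 1 comparison, and capitals mark the TGACG half-site of the cyclic AMP response element, the GC box GGGCGG or the reverse complement of either.

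Pde4b, chr4:102421305-102421604, plus strand: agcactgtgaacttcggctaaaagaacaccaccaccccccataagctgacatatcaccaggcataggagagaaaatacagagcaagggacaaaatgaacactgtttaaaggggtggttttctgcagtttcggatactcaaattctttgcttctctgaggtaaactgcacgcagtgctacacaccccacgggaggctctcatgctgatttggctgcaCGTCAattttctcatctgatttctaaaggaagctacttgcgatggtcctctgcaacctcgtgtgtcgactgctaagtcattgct

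Pde10a, chr17:8801495-8801794, plus strand: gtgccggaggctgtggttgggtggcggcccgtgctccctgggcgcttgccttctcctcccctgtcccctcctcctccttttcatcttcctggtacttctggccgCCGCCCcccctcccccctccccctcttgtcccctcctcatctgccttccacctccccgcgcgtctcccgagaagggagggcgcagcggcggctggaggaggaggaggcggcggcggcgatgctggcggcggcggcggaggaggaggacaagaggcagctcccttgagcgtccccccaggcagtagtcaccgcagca

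Pde10a, chr17:8849735-8850034, plus strand: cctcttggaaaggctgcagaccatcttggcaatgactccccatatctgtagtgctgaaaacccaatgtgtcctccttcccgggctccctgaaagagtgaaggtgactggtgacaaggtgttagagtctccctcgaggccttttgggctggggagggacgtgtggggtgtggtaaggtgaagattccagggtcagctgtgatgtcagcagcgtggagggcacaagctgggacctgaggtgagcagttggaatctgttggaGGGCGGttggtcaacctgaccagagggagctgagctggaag

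Adcy1, chr11:7063183-7063482, plus strand: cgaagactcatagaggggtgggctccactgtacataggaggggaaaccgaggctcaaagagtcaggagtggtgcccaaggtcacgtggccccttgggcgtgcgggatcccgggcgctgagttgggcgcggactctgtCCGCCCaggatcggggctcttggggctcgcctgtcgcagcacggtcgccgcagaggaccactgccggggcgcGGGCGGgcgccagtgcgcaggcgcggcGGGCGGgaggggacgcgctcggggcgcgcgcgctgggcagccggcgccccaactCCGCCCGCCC

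The Pde4b window, 1 of 4 for that gene, has the half-site 34 bases before the start and no GC box, and 47.0% of its bases are G or C. It is printed because it holds that match, and the other 3 Pde4b windows hold none of the motifs searched. The single Adcy1 window is 74.0% G or C and carries 5 GC boxes, of which the last 2 overlap. The Pde10a windows each carry 1 GC box, 146 bases before the start in the window at 71.3% G or C and 10 bases into the transcript in the other. Both Pde10a windows lie inside the gene, downstream of its first annotated base at 8525187, where no window was available. The printed Pde4b window likewise lies inside its gene, whose first annotated base, at 102087332, has no window either. Searched on both strands, TGACG was in 4 of the 24 windows beside 20.8% of all 32851 windows of the same length, GGGCGG in 7 beside 35.7%, and TATAAA in 3 beside 13.6%. The full element TGACGTCA and the AP-1 site TGANTCA were in none of the 24 windows, and in 1.79% and 7.81% of all windows. The letters TGACG are also part of the full element. These matches describe the sequence and were not tested as binding sites.

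Measured per length, in CPM per kb of exon, Adcy1 had the highest level of the 10 genes in naive WT hippocampus, at 146 ± 23.1 (SD, n = 6), and in every WT library at 0 h it was above all the others. Adcy1 alone took 0.1927% of all counts in the 36 libraries. Pde2a followed at 67.7 ± 6.21 CPM per kb. Pde1a at 32.8 ± 5.81 and Pde1b at 26.1 ± 2.63 CPM per kb came next, and the ranges of this pair overlapped. Pde4a stood at 14.3 ± 1.11 CPM per kb, Pde4b at 7.65 ± 0.640 and Pde10a at 6.996 ± 0.431, the last pair overlapping again. Pde4d at 4.76 ± 0.314, Adcy8 at 3.39 ± 0.563 and Pde7b at 1.77 ± 0.269 CPM per kb were the lowest. Of the 2 calcium-stimulated cyclases, Adcy1 was thus the highest and Adcy8 above Pde7b alone. Among the family genes that are not members, named here after their levels were seen, Adcy2 (39.9 CPM per kb), Adcy9 (22.4), Adcy5 (15.8) and Pde8b (12.96) lay within the upper part of the range, and the rod and cone genes Pde6a, Pde6b and Pde6c, the phosphodiesterases of photoreceptors, each had a mean under 0.1 CPM per kb.

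**Figure D1:**
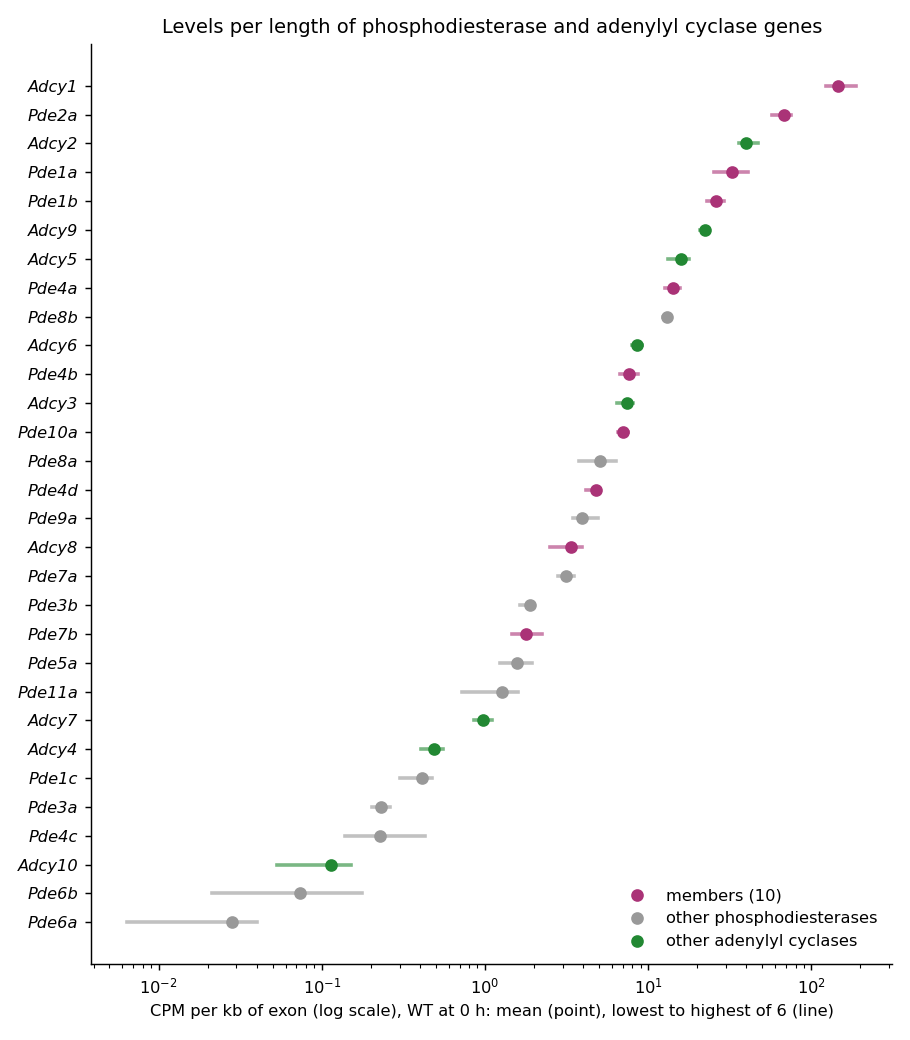
Levels of the 10 genes (purple) and the other phosphodiesterase (grey) and adenylyl cyclase (green) genes in WT at 0 h, in CPM per kb of exon on a log axis, with the mean of 6 libraries as a point and the lowest to highest library as a line. Adcy1 stands at 146 and Pde7b at 1.77 CPM per kb, and Pde6c, at 0 in at least 1 library, is not drawn.

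The question of the time course is which of these genes change after training. Over both genotypes, in 1 fit of 36 libraries by edgeR's quasi-likelihood test with the Benjamini-Hochberg adjustment over all genes tested, 2 of the 10 genes were called at 3 h against 0 h at an adjusted p under 0.05: Pde10a was higher and Pde4b lower. The background share called in that comparison was 2.39% of 18186 genes, 1.75% higher and 0.632% lower. A further 4 members had an unadjusted p under 0.05 there, which makes 6 of 10 beside 15.8% of all genes. At 3 h against 1 h, 1 of 10 was called, Pde10a, beside 0.214% of all genes, and 3 of 10 had an unadjusted p under 0.05 beside 10.7% of all genes. At 1 h against 0 h edgeR called 0 of 10 beside 1.14% of all genes, DESeq2 called 1 of 10 beside 2.23%, and 1 member had an unadjusted p under 0.05 beside 12.5% of all genes. The median log2 difference of the 10 members from 0 h was 0.034 at 1 h, and it was -0.007 at 3 h, beside -0.005 and -0.006 over all genes tested.

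**Figure D2:**
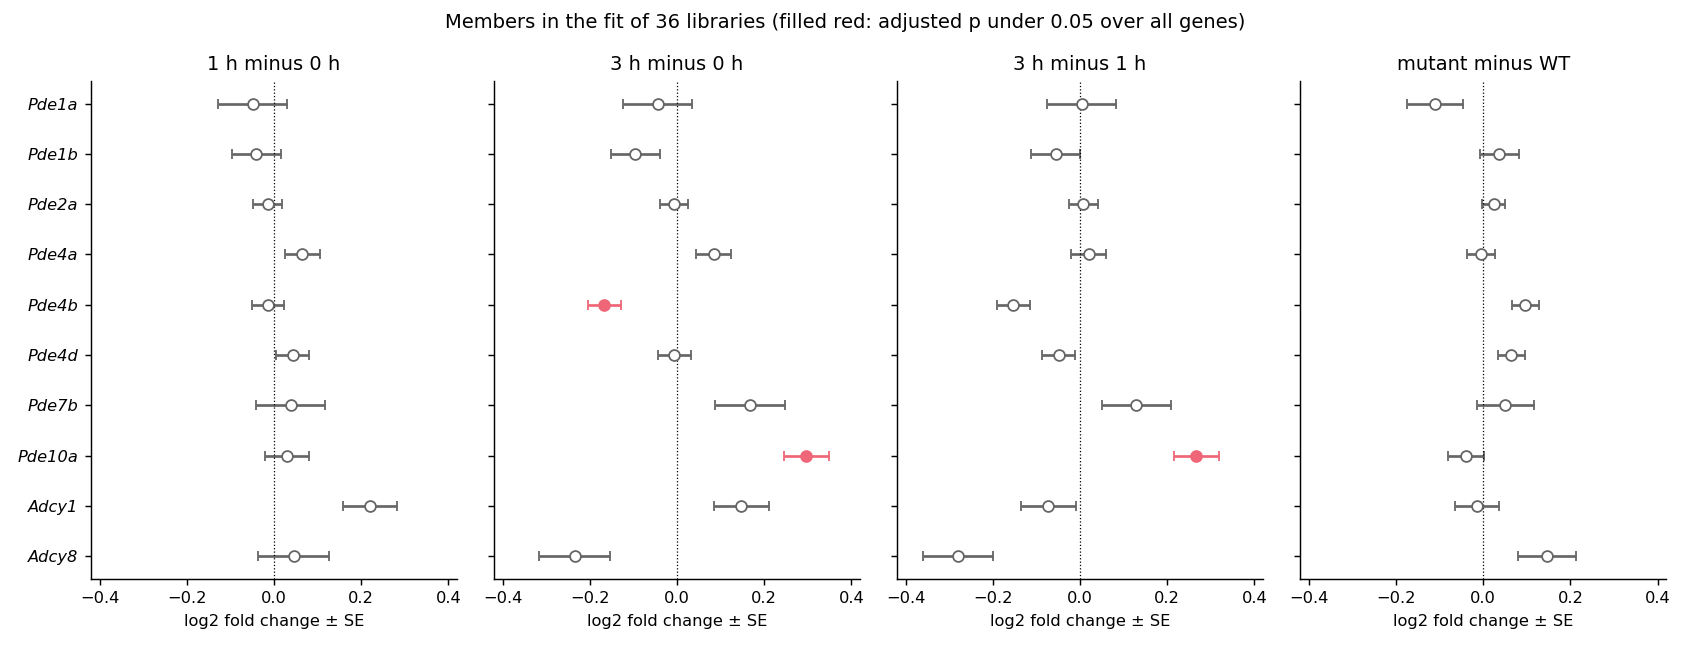
Log2 fold change and its SE for the 10 genes in the fit of 36 libraries, for 1 h minus 0 h, 3 h minus 0 h, 3 h minus 1 h (each over both genotypes) and mutant minus WT (over all times), with genes called at an adjusted p under 0.05 in filled red. Pde10a (0.30 from 0 h and 0.27 from 1 h) and Pde4b (-0.17 at 3 h minus 0 h) are the called points.

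Among the calcium- and calmodulin-activated phosphodiesterases, neither gene was called in any comparison. Pde1a (Entrez 18573, chromosome 2) ran from 152.5 CPM through a median of 201.1 to 245.4 in naive WT and from 137.9 through 178.5 to 220.8 in naive mutants, ranges that overlap. Its largest difference was in mutants against WT at 1 h, -0.15 (SE 0.06, adjusted p 0.51), where 3 of 6 mutant libraries were below every WT library. Over all times the difference between genotypes was -0.11 (SE 0.06, adjusted p 0.442).

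Pde1b (Entrez 18574, chromosome 15) averaged 144.9 CPM at 0 h, 140.9 at 1 h and 135.5 at 3 h over both genotypes. The 3 h difference from 0 h was -0.10 (SE 0.06, adjusted p 0.422), with 10 of 12 libraries at 3 h under the 0 h mean. The lowest library was at 116.1 CPM, in WT at 3 h, and the highest at 179.2, in naive mutants.

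Pde2a (Entrez 207728, chromosome 7), the cyclic GMP-stimulated member, was called in no comparison. Its mean was 423.6 CPM at 0 h, 419.3 at 1 h and 421.4 at 3 h over both genotypes, and its largest log2 difference in the fit of 36 libraries was 0.02, of mutants from WT. The SE of these time differences was 0.03, and the adjusted p ran from 0.908 to 0.971.

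Of the 3 Pde4 genes, Pde4b was the one called. Pde4b (Entrez 18578, chromosome 4) ran from 71.0 CPM through a median of 80.5 to 91.7 in naive WT, from 73.8 through 79.3 to 88.8 in WT at 1 h, and from 66.1 through 70.7 to 78.7 in WT at 3 h. In mutants it ran from 80.8 through 86.1 to 89.7 at 0 h, from 78.1 through 86.8 to 90.7 at 1 h, and from 72.9 through 75.8 to 81.3 at 3 h. All 12 libraries at 3 h were under the mean of the 0 h libraries, though only 3 were under every 0 h library, so the groups overlap. The log2 fold change of Pde4b at 3 h against 0 h was -0.17 (SE 0.04, adjusted p 0.0139), a fold of 0.891. It was -0.17 (SE 0.06, adjusted p 0.514) within WT and -0.16 (SE 0.04, adjusted p 0.314) within mutants, and neither was called. Against 1 h the 3 h difference was -0.15 (SE 0.04, adjusted p 0.0663), and -0.16 (adjusted p 0.0336) without the 2 libraries of discordant sex. At 1 h it stood at -0.01 (SE 0.04, adjusted p 0.925) from 0 h.

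Pde4a (Entrez 18577, chromosome 9) averaged 108.4 CPM at 0 h, 113.4 at 1 h and 115.0 at 3 h, a log2 difference of 0.08 (SE 0.04, adjusted p 0.294) at 3 h. Of its 12 libraries at 3 h, 10 were above the 0 h mean and 4 above every 0 h library. Pde4d (Entrez 238871, chromosome 13) averaged 57.5, 59.3 and 57.3 CPM at 0, 1 and 3 h. Its values in mutants at 1 h, from 57.0 through a median of 63.3 to 64.7 CPM, set against 53.8 through 55.6 to 61.6 in WT at 1 h, gave a log2 difference of 0.13 (SE 0.04, adjusted p 0.402) with all 6 mutant libraries above the WT mean and 4 above every WT library.

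Pde7b (Entrez 29863, chromosome 10), a cyclic AMP-specific gene with a low level, averaged 22.3, 22.8 and 25.01 CPM at 0, 1 and 3 h. The 3 h difference from 0 h was 0.17 (SE 0.08, adjusted p 0.299), and 0.21 (adjusted p 0.0549) without the 2 libraries of discordant sex. The library labelled WT 1 h male 1 was the highest of WT at 1 h at 28.2 CPM, and the one labelled mutant 3 h female 2 was the lowest of mutants at 3 h at 17.9 CPM.

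**Figure D3:**
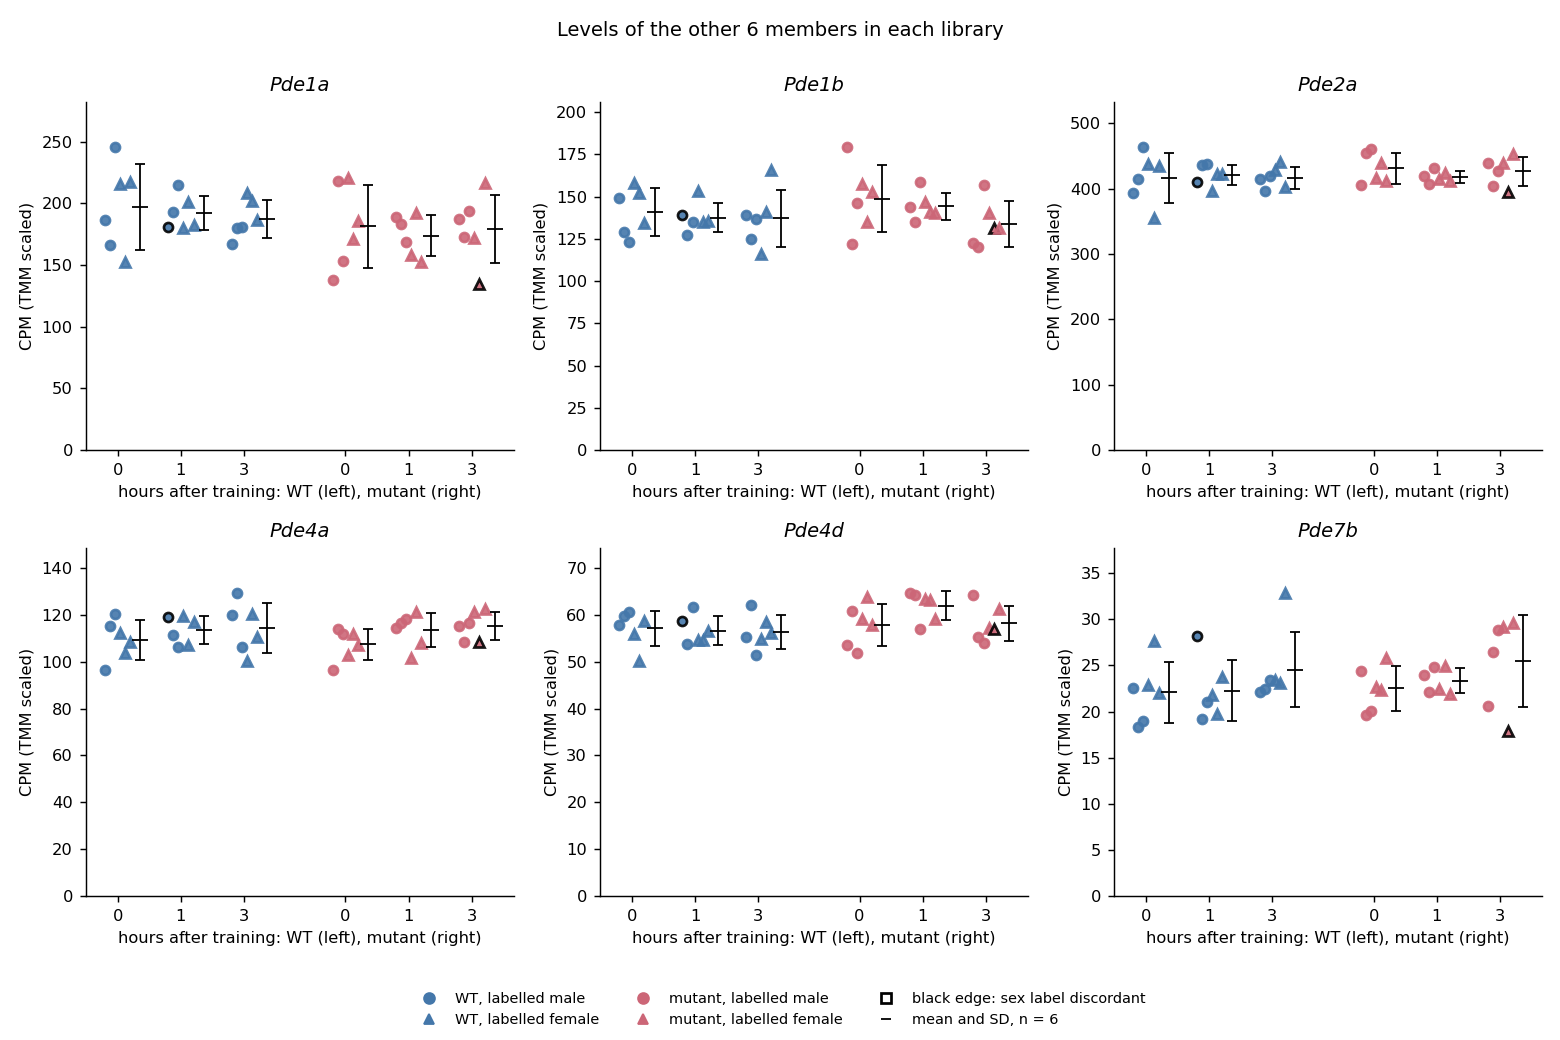
CPM of Pde1a, Pde1b, Pde2a, Pde4a, Pde4d and Pde7b in each of 36 libraries (circles labelled male, triangles labelled female, black edges the 2 libraries of discordant sex), with mean and SD of 6 per group. The groups overlap for each of these 6 genes, and 1 WT library at 3 h stands at 32.8 CPM for Pde7b.

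Pde10a (Entrez 23984, chromosome 17, 8525187 to 8986648 in GRCm38), whose enzyme hydrolyses cyclic AMP and cyclic GMP and is best known from striatal neurons, had the largest rise of the 10 genes at 3 h. In naive WT it ran from 83.5 CPM through a median of 89.1 to 96.4, at 1 h from 86.9 through 90.7 to 114.6, and at 3 h from 105.7 through 113.4 to 118.5. In mutants it ran from 87.9 through 90.1 to 98.2 at 0 h, from 83.5 through 88.0 to 99.4 at 1 h, and from 79.4 through 111.8 to 124.3 at 3 h. In WT all 6 libraries at 3 h were above every library at 0 h. In mutants 5 of 6 were above every 0 h library, and the sixth, the library labelled mutant 3 h female 2, was at 79.4 CPM, below every 0 h library. The highest WT library at 1 h, at 114.6 CPM where the next was at 103.6, was the one labelled WT 1 h male 1.

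Over both genotypes Pde10a was 1.23-fold higher at 3 h than at 0 h, a log2 difference of 0.30 (SE 0.05, adjusted p 0.00225), and 0.27 (SE 0.05, adjusted p 0.0169) higher than at 1 h. The call against 1 h was lost without WT 1 h male 2 (adjusted p 0.0523). At 1 h Pde10a differed from 0 h by 0.03 (SE 0.05, adjusted p 0.863), and by 0.0001 without the 2 libraries of discordant sex. Without the 2 libraries of discordant sex the 3 h differences of Pde10a were 0.34 from 0 h (adjusted p 2.13e-06) and 0.34 from 1 h (adjusted p 1.95e-06). Within WT alone the 3 h against 0 h difference was 0.33 (SE 0.05), the lowest p of all 17438 genes tested, with an adjusted p of 0.114. Within mutants it was 0.27 (SE 0.09, adjusted p 0.439), and 0.35 (adjusted p 0.00776) without the library labelled mutant 3 h female 2.

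Because the striatum lies outside the dissected tissue and expresses Pde10a strongly, striatal markers were read beside it. All 8 markers were detected in every library, none at 0. Their summed level at 0 h was between 79.4 and 114.0 CPM in WT libraries and between 82.5 and 153.6 in mutant ones. At 3 h it was between 77.2 and 131.3 CPM in WT and between 89.8 and 114.2 in mutants, so the groups overlap. At 3 h against 0 h, 1 of the 8 was higher and 7 were lower, with a median log2 difference of -0.12 and 0 of 8 called by edgeR (1 at an unadjusted p under 0.05). Drd1, the D1 dopamine receptor gene, was at -0.32 (SE 0.11, adjusted p 0.119) from 0 h. At 3 h against 1 h, where Pde10a was also called, 6 of the 8 were higher, with a median of 0.124, 0 called and 1 at an unadjusted p under 0.05. Within WT at 3 h against 0 h 6 of the 8 were higher (median 0.054), and within mutants 1 of the 8 (median -0.361), with 0 called and 1 at an unadjusted p under 0.05 in each. The 5 choroid plexus markers were all higher at 3 h, with medians of 0.491 from 0 h and 1.271 from 1 h over both genotypes and 0 called by edgeR. Of 4 neocortex markers, Rorb, a nuclear receptor gene of cortical layer neurons, was called lower at 3 h, by -0.31 (SE 0.06, adjusted p 0.00768) from 0 h and -0.39 (SE 0.06, adjusted p 0.00372) from 1 h, and the median of the 4 was -0.029 in both. Summed, the neocortex markers overlapped between groups, with 89.2 to 120.2 CPM at 0 h, 93.0 to 119.1 at 1 h and 90.7 to 129.5 at 3 h over both genotypes. Of 5 microglia markers 4 were lower at 3 h than at 0 h (median -0.142), with 0 called by edgeR and 4 at an unadjusted p under 0.05. In the other marker lists 0 were called in these comparisons, with at most 2 of a list at an unadjusted p under 0.05. The part of other tissue in the differences of Pde10a was not tested.

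Adcy1 (Entrez 432530, chromosome 11, 7063433 to 7178506 in GRCm38) was the member called at 1 h, in mutants. In naive WT it ran from 1531 CPM through a median of 1795 to 2353, at 1 h from 1713 through 1980.4 to 2552, and at 3 h from 1645 through 1905 to 2319, and these groups overlap widely. In mutants it ran from 1619 through 1702 to 1792 at 0 h, from 1822 through 2132 to 2384 at 1 h, and from 1826 through 1900.4 to 2210.2 at 3 h. All 6 mutant libraries at 1 h and all 6 at 3 h were above every mutant library at 0 h. The SD of naive mutants was 55.9 CPM and that of naive WT 289, of which 1 library, WT 0 h female 2, was the highest at 2353 CPM.

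In mutants the 1 h rise of Adcy1 over 0 h was 1.22-fold, a log2 difference of 0.29 (SE 0.05, adjusted p 0.0258), and it was the 1 member called of 10, beside 0.312% of 17282 genes (11.1% at an unadjusted p under 0.05). It was no longer called when any 1 of 8 of the 12 libraries was left out (adjusted p from 0.0503 to 0.089), nor in the fit of all 36 libraries (adjusted p 0.154) or with a replicate block (adjusted p 0.0635). In WT the same difference for Adcy1 was 0.14 (SE 0.11, adjusted p 0.937), or 0.24 (adjusted p 0.636) without WT 0 h female 2, and over both genotypes 0.22 (SE 0.06, adjusted p 0.0723), or 0.26 with an adjusted p of 0.0123 without WT 0 h female 2. At 3 h Adcy1 stood 0.15 (SE 0.06, adjusted p 0.227) above 0 h over both genotypes.

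Of the markers read beside the 1 h rise of Adcy1 in mutants, edgeR called 0. All 8 striatum markers were lower at 1 h (median -0.411, 3 at an unadjusted p under 0.05), with a sum of 82.5 to 153.6 CPM at 0 h and 81.1 to 102.5 at 1 h. All 5 choroid plexus markers were lower (median -0.734, 0 at an unadjusted p under 0.05), and 2 of 3 CA2 markers were higher (median 0.174, 2 at an unadjusted p under 0.05). Of 5 dentate granule cell markers 4 were higher (median 0.152, 1 at an unadjusted p under 0.05). Their sum was 267.5 to 360.2 CPM at 0 h and 326.1 to 414.9 at 1 h. In WT at 1 h against 0 h 3 of these 5 were higher (median 0.011). All 5 CA1 markers were higher in mutants (median 0.071, 1 at an unadjusted p under 0.05), and 3 of the 5 in WT (median 0.021). The other lists had at most 2 markers each at an unadjusted p under 0.05. The part of these markers in the rise of Adcy1 was not tested.

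Adcy8 (Entrez 11514, chromosome 15), the other calcium-stimulated cyclase gene, was called by edgeR in no comparison. In WT it ran from 20.4 CPM through a median of 29.0 to 32.1 at 0 h, from 21.3 through 25.4 to 32.7 at 1 h, and from 20.1 through 23.1 to 26.7 at 3 h. In mutants it ran from 24.6 through 26.9 to 36.4 at 0 h, from 27.9 through 33.0 to 37.5 at 1 h, and from 19.7 through 23.7 to 30.4 at 3 h. The mutant libraries at 1 h were all above the mean of WT at 1 h, and 3 of 6 were above every WT library. At 0 h the means of WT and mutants were 27.6 and 28.3 CPM, and at 3 h they were 23.3 and 24.3.

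For Adcy8 the difference of 3 h from 0 h over both genotypes was -0.24 (SE 0.08, adjusted p 0.121), and that of 3 h from 1 h was -0.28 (SE 0.08, adjusted p 0.125). In mutants alone the 3 h level was -0.43 (SE 0.09, adjusted p 0.27) from that at 1 h, with 5 of 6 libraries below every 1 h library. None of these passed in the fits as designed. DESeq2 called the 3 h against 1 h difference over both genotypes (adjusted p 0.0487, beside 1.06% of all genes called by DESeq2), and leaving out WT 0 h female 2, the lowest naive WT library for Adcy8 at 20.4 CPM, gave an adjusted p of 0.0332 for 3 h against 0 h. In mutants alone DESeq2 called Adcy8 at 3 h against 1 h (-0.43, adjusted p 0.00289).

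**Figure D4:**
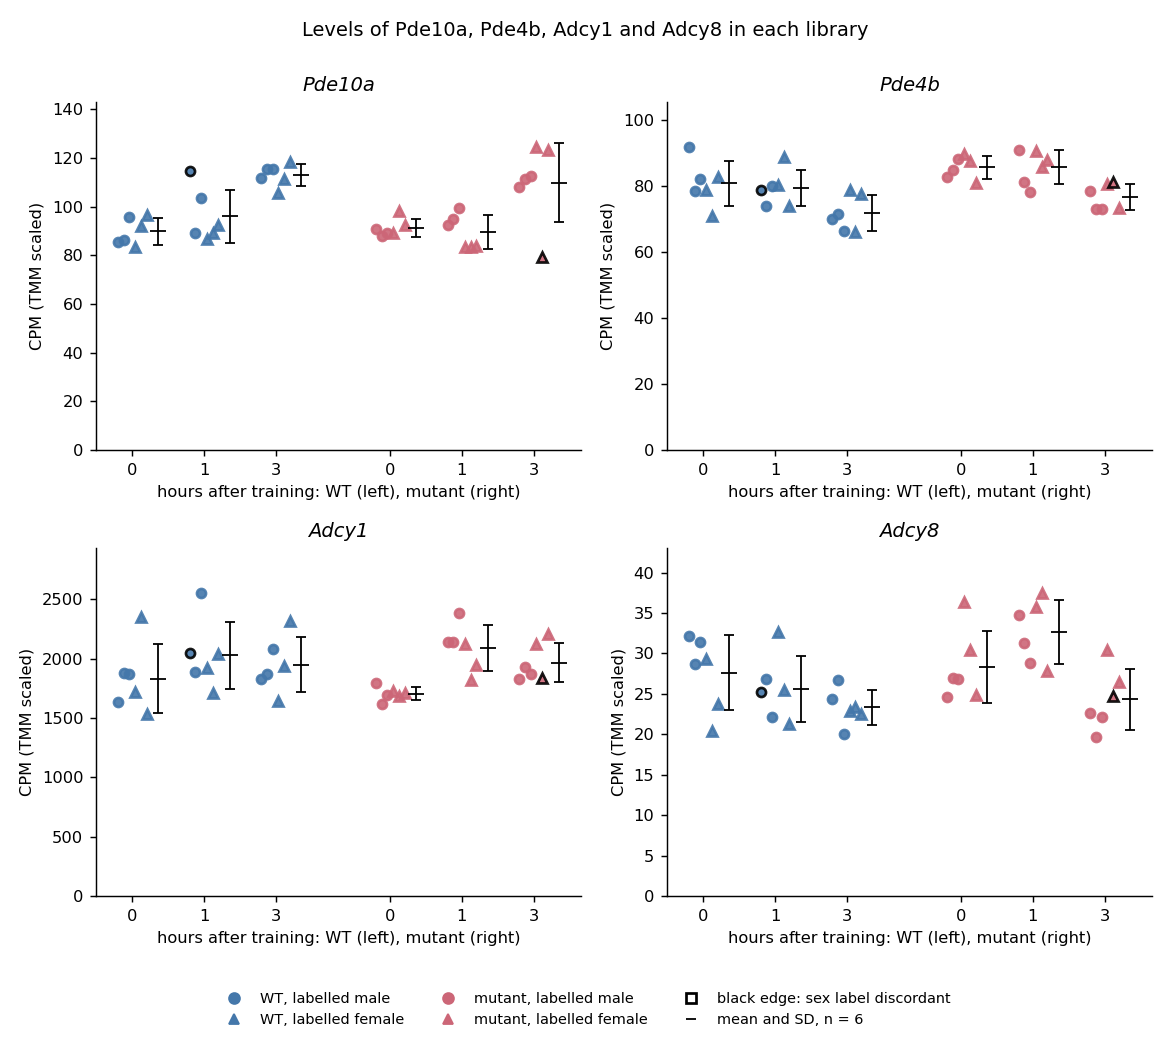
CPM of Pde10a, Pde4b, Adcy1 and Adcy8 in each of 36 libraries (circles labelled male, triangles labelled female, black edges the 2 libraries of discordant sex), with mean and SD of 6 per group. Pde10a at 3 h lies above every 0 h library in 11 of 12 cases, Pde4b at 3 h lies under the 0 h mean in 12 of 12, and Adcy1 in mutants at 1 h lies above every naive mutant in 6 of 6.

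The question of genotype is whether the genes differ between mutants and WT and whether they respond differently. Over all times edgeR and DESeq2 each called 0 of 10 members between genotypes, beside 1.18% and 2.96% of all genes, and 3 had an unadjusted p under 0.05 beside 15.1% of all genes. Pde4b had the lowest p, at 0.10 (SE 0.03, adjusted p 0.107) higher in mutants, and 15 of 18 mutant libraries exceeded the mean of WT. Adcy8 was at 0.15 (SE 0.07, adjusted p 0.283) and Pde4d at 0.06 (SE 0.03, adjusted p 0.315).

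Of 5 dentate granule cell markers, 2 were called higher in mutants over all times, C1ql2 at 0.74 (SE 0.15, adjusted p 0.0117) and Tdo2 at 0.41 (SE 0.10, adjusted p 0.0306), while 3 of the 5 were higher and 2 lower, from -0.18 up, with a median of 0.157. Summed, they were between 206 and 453.2 CPM in WT and between 267 and 360.2 in mutants at 0 h, 256 to 357 and 326 to 415 at 1 h, and 257 to 453.8 and 265 to 427 at 3 h. For C1ql2 and Tdo2, more granule cells and more RNA per cell cannot be told apart. All 5 choroid plexus markers were lower in mutants, with a median of -1.847, 0 of 5 called by edgeR and 5 at an unadjusted p under 0.05. Their sum was between 45.4 and 5745 CPM in WT and between 64.8 and 2589.7 in mutants at 0 h, 103 to 4503 and 58.1 to 1109 at 1 h, and 42.4 to 7934 and 52.6 to 3607 at 3 h. No marker of either list was at 0 in any library. Of 5 astrocyte markers all were higher in mutants (median 0.131), 3 at an unadjusted p under 0.05, and Gja1, a gap junction gene, was called at 0.13 (SE 0.03, adjusted p 0.0426). The astrocyte markers summed to between 1324 and 1704 CPM in WT and between 1504 and 1741 in mutants. In the other lists edgeR called 0 between genotypes. An unadjusted p under 0.05, which 15.1% of all genes had, was found there for 3 of 8 striatum, 3 of 4 thalamus, 2 of 3 CA2, 3 of 6 interneuron and 1 each of 5 CA1, 4 CA3 and 4 neocortex markers, and for 0 oligodendrocyte, microglia and endothelium markers. The part of all these markers in the differences of the members between genotypes was not tested.

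At 1 h edgeR and DESeq2 called 0 of 10 between genotypes, with 4 at an unadjusted p under 0.05 (beside 8.61% of all genes), namely Pde1a, Pde4b, Pde4d and Adcy8. Adcy8 had the largest of these differences, at 0.35 (SE 0.10, adjusted p 0.351). At 0 h and at 3 h 0 of 10 were called by either tool and 0 had an unadjusted p under 0.05, beside 6.15% and 6.36% of all genes. The background called by edgeR was 0% at 0 h and 1 h and 0.0115% at 3 h, and by DESeq2 it was 0.0865%, 0.643% and 0.27%.

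The difference in response, that is the change in mutants minus the change in WT, is the interaction term of a fit to 24 libraries, run once for 1 h and once for 3 h. By edgeR and by DESeq2, 0 of 10 members were called at 1 h and 0 of 10 at 3 h, 0 had an unadjusted p under 0.05 (beside 3.78% and 1.52% of all genes), and 0% of all genes were called by either tool at either time. At 1 h it was 0.32 (SE 0.17, adjusted p 0.999) for Adcy8, 0.15 (SE 0.12, adjusted p 0.999) for Adcy1 and -0.12 (SE 0.08, adjusted p 0.999) for Pde10a. At 3 h it was 0.12 (SE 0.12) for Adcy1, 0.01 (SE 0.08) for Pde4b and -0.06 (SE 0.10) for Pde10a, each with an adjusted p of 1.0. Without the 2 libraries of discordant sex the response difference of Pde10a was -0.07 at 1 h and 0.02 at 3 h, and that of Pde4b at 3 h was -0.0025. Without WT 0 h female 2 that of Adcy1 was 0.05 at 1 h and 0.03 at 3 h, and without WT 3 h female 1 it was 0.07 at 3 h. So the call of Adcy1 at 1 h in mutants and not in WT is not shown to be a difference between the genotypes.

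**Figure D5:**
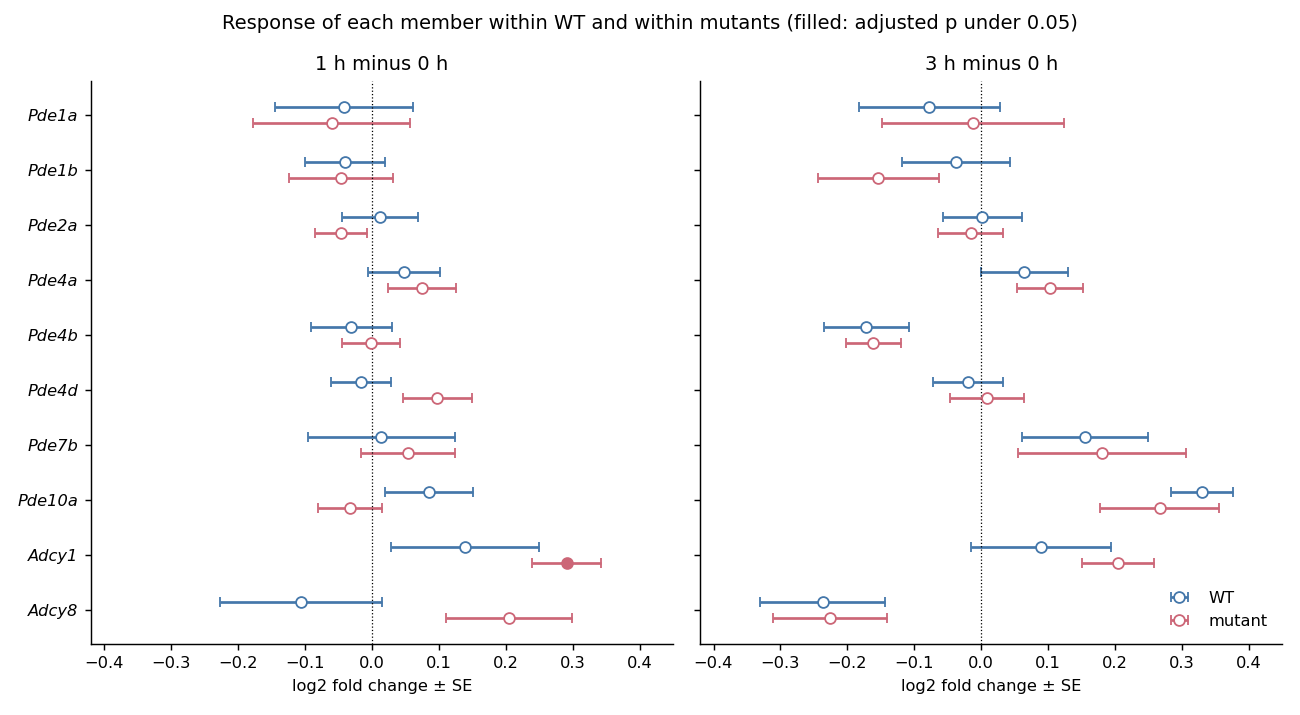
Log2 fold change and its SE for the 10 genes at 1 h and at 3 h against 0 h within WT (blue) and within mutants (red), each from its own 12 libraries, with called genes filled. Adcy1 in mutants at 1 h (0.29) is the filled point, and at 3 h the WT and mutant values of Pde10a (0.33 and 0.27) and Pde4b (-0.17 and -0.16) lie side by side.

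Within single genotypes the other time comparisons gave no calls by edgeR. In WT 0 of 10 were called at 1 h against 0 h, at 3 h against 0 h and at 3 h against 1 h, beside 0% of all genes in each. There 0, 3 and 2 members had an unadjusted p under 0.05, beside 5.36%, 8.23% and 7.41% of all genes. DESeq2 called 0, 1 and 1 members there, Pde10a both times, beside 0.052%, 0.459% and 0.362% of all genes. In mutants 0 of 10 were called at 3 h against 0 h and 3 h against 1 h, beside 0% of all genes. There 4 and 3 members had an unadjusted p under 0.05, beside 8.57% and 8.04% of all genes, and DESeq2 called 2 (Adcy1 and Pde4b) and 1 (Adcy8) beside 0.822% and 0.423%.

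The other genes of the pathway were read from lists that were drawn up with earlier results known. Over all genes in the fit of 36 libraries, edgeR called 1.14% at 1 h and 2.39% at 3 h against 0 h, and 12.5% and 15.8% had an unadjusted p under 0.05. Of the 13 other phosphodiesterase genes tested over both genotypes, 1 was called, Pde9a, which encodes a cyclic GMP-specific enzyme: it fell by 0.29 (SE 0.07, adjusted p 0.0327) at 1 h against 0 h. Pde9a averaged 14.0 CPM in naive WT and 11.98 in WT at 1 h, 13.7 in naive mutants and 10.7 in mutants at 1 h. Its adjusted p ran from 0.00568 to 0.0813 over the alternatives, and it stayed called in 24 of 36 fits that left out 1 library. At 1 h against 0 h 4 of the 13 had an unadjusted p under 0.05. In the other comparisons over both genotypes 0 of the 13 were called by edgeR, with 2 at an unadjusted p under 0.05 at 3 h against 0 h.

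Of the 8 other adenylyl cyclase genes, edgeR called 0 in any comparison over both genotypes, and 3 had an unadjusted p under 0.05 at 3 h against 0 h (beside 15.8% of all genes). Of 17 cyclic AMP effector genes (protein kinase A subunits and their inhibitors, Epac genes, anchoring proteins and HCN channels), 0 were called, with 2 at an unadjusted p under 0.05 at 1 h and 3 at 3 h. Of 21 genes for ligands, receptors and G proteins that act on cyclases, 0 were called, with 4 and 7 at an unadjusted p under 0.05 (beside 12.5% and 15.8% of all genes). Of 9 calcium and calmodulin genes 0 were called, with 0 and 1 at an unadjusted p under 0.05. Between genotypes over all times edgeR called 0 genes of these lists, beside 1.18% of all genes. There 15.1% of all genes had an unadjusted p under 0.05. It was found for 4 of the 17 effectors (lowest adjusted p 0.0628) and 4 of the 21 ligand, receptor and G protein genes (0.0624). It was also found for 1 of the 13 other phosphodiesterase genes (0.0597), and for 0 other cyclase and 0 calcium and calmodulin genes.

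Of 7 genes known as targets of CREB, 3 were called higher at 1 h than at 0 h over both genotypes, 6 had an unadjusted p under 0.05 (beside 1.14% and 12.5% of all genes), and the median of the 7 was 0.43 beside -0.005 over all genes. These were Per1, a clock gene (0.54, SE 0.10, adjusted p 0.00633), Nr4a1, an orphan nuclear receptor gene (0.73, SE 0.18, adjusted p 0.032), and Fos, an immediate early transcription factor gene (1.25, SE 0.30, adjusted p 0.0318). In mutants alone at 1 h against 0 h 1 of the 7 was called, Per1 at 0.61 (SE 0.09, adjusted p 0.0149), and 7 had an unadjusted p under 0.05, beside 0.312% and 11.1% of all genes. That call was lost in the fit of all 36 libraries (adjusted p 0.0568). Over both genotypes Per1 stayed called with each of the 36 libraries left out in turn, Nr4a1 in 23 and Fos in 22 of those 36 fits. At 3 h against 0 h edgeR called 0 of the 7, with 0 at an unadjusted p under 0.05.

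As a description of which genes varied like the members, log2 CPM was correlated over the 36 libraries with 17521 named genes; the points share library depth and composition. Pde10a was most like Hacd2 (Pearson r 0.744), Arid1b (0.744) and Ppp1r10 (0.739), and the member most like it was Pde7b (0.594). Pde4b was most like Lap3 (0.799), Slc14a1 (0.781) and Gpam (0.761), and Adcy8 was the member most like it (0.673). Adcy8 in turn was most like Hdac9 (0.785), Pgr (0.781) and Ttbk2 (0.744). Adcy1 was most like Tacc1 (0.746), Lyst (0.716) and Zcchc14 (0.702), and its closest member, Pde7b, stood at 0.419. Pde1a had the highest r of any member, with Sv2b at 0.89, Opcml at 0.879 and Sema3e at 0.843. Pde7b was most like C1ql3 (0.80), Smad3 (0.796) and Ccdc85a (0.785). The remaining leaders were Stxbp6 for Pde1b (0.693), Prkcb for Pde2a (0.733), Runx2 for Pde4a (0.73) and Kcna2 for Pde4d (0.704).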

How the data were processed

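RNA from dorsal hippocampus of 36 mice was sequenced after poly-A selection, and the authors aligned the reads to mm10 with STAR 2.7.8a and counted them per gene with featureCounts 2.0.1 (versions from the submitters' processing notes). What they deposited is 1 table of raw counts for each library, not normalized, with 27179 Entrez genes. The annotation, the strand setting and the handling of multi-mapping reads are not given in the sources used here, so reads of overlapping or antisense genes cannot be told apart from those of a member. Among the counted genes with a symbol, none shared an exon base with a member in GENCODE vM21, and unnamed genes were not looked up. Of the 27179 genes, 25275 were named from RefSeq, and the 1904 unnamed genes held 1.28% of the counts. Library totals ran from 40274435 to 107000233 counts, and a member held between 745 counts (Pde7b) and 216651 counts in a library. Libraries outside this experiment were not analysed here.

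The quasi-likelihood F-test of edgeR 4.0.16 was run in R 4.3.3 with limma 3.58.1, using robust estimation, TMM scaling, filterByExpr at a minimum count of 10 and the labelled sex as covariate. Pairwise comparisons used their 12 libraries, differences in response 24, and comparisons over both genotypes or all times used all 36 in 1 fit of 6 group means. Genes were called at a Benjamini-Hochberg adjusted p under 0.05 over all genes tested, and each of the 15 comparisons was adjusted on its own. The comparisons of 1 h and of 3 h with 0 h share the 0 h libraries. The fits were tested on simulated data. CPM are TMM-scaled, and lengths are the union of exons in GENCODE vM21. Correlations used log2 CPM with a prior count of 2. Alternatives were DESeq2 1.42.0, RLE size factors, no filter, no sex covariate, a replicate block, all 36 libraries, the fit without 2 libraries whose sex transcripts (1000 summed counts on Y-linked genes marking a male) go against the label, and each library left out in turn. Tables and plots used Python 3.11.15, NumPy 2.4.6, pandas 2.3.3 and Matplotlib 3.10.9. Promoter windows are those of RefSeq on GRCm38.p6, the assembly of mm10.

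The members and lists were chosen with earlier results of these data known. All 10 members are named. By rule, genes of the other pathway lists could be named when called in a comparison or when among the 2 with the largest fold changes, and each member is set beside up to 3 genes most like it. Marker genes called in a comparison over both genotypes or all times were named after their values were seen. The same alternatives were added for called genes of the other lists after the data had been seen.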

Additional observations from a re-analysis of the deposited data

Results flagged for a closer look

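Of 60 groups of 6 libraries (10 genes in 6 groups), 2 held a library far from the others by Dixon's test, which chance does in about 1 of 20 groups. For Pde10a, the library labelled mutant 3 h female 2 was at 79.4 CPM, while the other 5 mutant libraries at 3 h ran from 108.2 to 124.3 CPM. This library is 1 of the 2 whose sex transcripts go against the label. For Pde7b, the library WT 3 h female 3 was at 32.8 CPM, while the other 5 WT libraries at 3 h ran from 22.1 to 23.5 CPM.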

How the results depend on the processing

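The calls of Pde10a and Pde4b at 3 h against 0 h over both genotypes held in all 6 alternatives and in all 36 fits that left out 1 library, with log2 differences of 0.27 to 0.34 for Pde10a and -0.19 to -0.14 for Pde4b. The other counts of members called were less stable, and the causes were not tested. DESeq2 called 1 member in WT at 3 h against 0 h and at 3 h against 1 h, 2 in mutants at 3 h against 0 h and 1 at 3 h against 1 h, and over both genotypes 1 at 1 h against 0 h (Adcy1) and 3 at 3 h against 1 h (Pde10a, Pde4b and Adcy8). Without the 2 libraries of discordant sex the count was 1 in mutants for both 3 h comparisons (Pde10a) and 2 at 3 h against 1 h over both genotypes. In mutants at 1 h against 0 h, a replicate block and the fit of all 36 libraries each gave 0.

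With 1 library left out, the count of members called ran from 0 to 1 in WT at 3 h against 0 h (1 without WT 0 h female 2), in mutants at 1 h against 0 h, in mutants at 3 h against 0 h and against 1 h (1 without mutant 3 h female 2), over both genotypes at 1 h against 0 h (1 without WT 0 h female 2) and between genotypes over all times (1, Pde4b, without WT 0 h male 1). Over both genotypes it ran from 2 to 4 at 3 h against 0 h, with Adcy1 and Adcy8 added without WT 0 h female 2. At 3 h against 1 h it ran from 0, without WT 1 h male 2, where the adjusted p of Pde10a was 0.0523, to 2, with Pde4b added without WT 0 h female 2, WT 0 h male 1, WT 3 h female 3 or mutant 3 h female 2. Over all genes the fits with 1 library left out called 0 to 8 in WT at 3 h against 0 h (8 without WT 0 h female 2). In mutants they called 0 to 10 at 3 h against 0 h (10 without mutant 0 h female 2) and 0 to 18 against 1 h (18 without mutant 3 h female 2). The ranges for the other comparisons named here are given below.

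Replicate numbers were not taken to pair the mice: deviations of same-numbered libraries correlated between -0.304 and 0.199, and no comparison had all pairs over 0.1. The most was 3 of 6 pairs, in mutants against WT at 0 h (median 0.102). Such correlations cannot show whether same-numbered mice shared a litter or a day, and this was not tested. The replicate block gave 5 genes between genotypes at 1 h in place of 0, and 0 at 3 h in place of 2. Over both genotypes it gave 267 at 1 h against 0 h in place of 208, and 564 at 3 h against 0 h in place of 434. In mutants at 1 h against 0 h it gave 37 in place of 54.

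Counts over all genes depended on the tool and on the 2 libraries of discordant sex. DESeq2 called 406, 807 and 192 genes over both genotypes (1 h against 0 h, 3 h against 0 h, 3 h against 1 h) in place of 208, 434 and 39, and 290 higher and 248 lower between genotypes in place of 149 and 65. It called 9, 80 and 63 in WT in place of 0, 370, 142 and 73 in mutants in place of 54, 0 and 0, and 15, 111 and 47 between genotypes at 0, 1 and 3 h in place of 0, 0 and 2. Without the 2 libraries edgeR called 407 at 1 h against 0 h and 310 at 3 h against 1 h over both genotypes, 277 higher and 195 lower between genotypes over all times, 41 and 18 between genotypes at 1 h and 3 h, and 3, 3, 1 and 18 in WT (1 h against 0 h, 3 h against 1 h) and mutants (3 h against 0 h, 3 h against 1 h). No sex covariate gave 3 between genotypes at 1 h, no filter 1 in mutants at 3 h against 1 h, and the fit of 36 libraries 1 in WT at 1 h against 0 h and at 3 h against 1 h, each in place of 0. With 1 library left out the counts over both genotypes ran from 114 (without mutant 0 h female 3) to 331 (WT 1 h male 1), 219 (WT 0 h male 1) to 682 (WT 0 h female 2) and 7 (WT 1 h male 2) to 161 (mutant 3 h female 2). In mutants at 1 h against 0 h they ran from 26 (mutant 0 h male 3) to 86 (mutant 0 h female 2), and between genotypes over all times from 142 (mutant 0 h male 3) to 354 (mutant 0 h male 1). Among single genes, 22 values passed the threshold and 51 lost it under some alternative, beside 4093 that did neither. Of 3980 member values under an alternative 194 had the other sign, in 60 of 150 member comparisons, 0 of them called as designed or under the alternative and the largest at 0.0776 as designed.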
